A study of Nannospalax ehrenbergi and Mus musculus with 14 samples.

Results

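The miR-200 family (miR-200a-3p, miR-200b-3p, miR-429-3p, miR-200c-3p and miR-141-3p), miR-203-3p and miR-205-5p are 7 microRNAs known from epithelial cells. They were taken by name from the microRNA tables of a study of *Spalax* and mice treated with 3-methylcholanthrene (3MCA), a chemical carcinogen. They make up 7 of the 1326 names in these tables, and both tables list each of them. *Spalax* is a blind subterranean rodent, and the animals used were caught in the wild and differed widely in age. The mice were young adult C57BL/6 males. Every labelled animal received 3MCA once under the skin of the neck, so no labelled group is untreated. The small RNA libraries represent 2 sides of the same neck, the injected side (IS), which held the growth, and the side without injection (UIS). Animals spalax_600 and spalax_976, both female, bore granulomas and were operated 14 and 16 months after the injection. Animals spalax_2240, a female, and spalax_2230, a male, bore fibrosarcomas and were operated at 18 and 30 months. The mice mouse_512, mouse_1023 and mouse_1019 bore fibrosarcomas and were operated at 11, 12 and 14 weeks. There were thus 2 libraries for each side of each *Spalax* condition and 3 for each side of the mice, 14 in all. One mouse UIS library carries an animal number in the table that no label has, so it is called the unnumbered mouse UIS library and was not paired with an IS library. Its species and side were taken from its name, and no label gives the treatment, growth, time or sex of its animal.

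MicroRNAs are short RNAs that pair with messenger RNAs, mainly through bases 2 to 8 of the microRNA, and lower their translation or stability. The miR-200 family and miR-205 are known to repress *Zeb1* and *Zeb2*, transcription factors that switch off epithelial genes, and loss of these microRNAs accompanies the change from epithelial to mesenchymal cells. miR-203 is abundant in the outer layers of the skin, where it restrains the stem cell factor p63, and miR-205 is abundant in the basal layer. Muscle fibres, fibroblasts and fibrosarcoma cells are mesenchymal, and these microRNAs are usually low in them.

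The hairpins that give the miR-200 family are shown because the family divides by sequence, and the division is used in the results. They were read from the mouse transcripts of GENCODE M21 (GRCm38), written 5′ to 3′ with T for U. The capitals mark the longest run that all hairpins of a subgroup share. In the miR-200b, miR-200c and miR-429 hairpins this run is 10 bases long, and of 2201 mouse microRNA hairpins in the annotation 3 hold it.
Mir200b: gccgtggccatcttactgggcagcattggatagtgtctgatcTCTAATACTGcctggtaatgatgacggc
Mir200c: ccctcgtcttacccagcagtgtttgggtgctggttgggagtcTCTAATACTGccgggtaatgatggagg
Mir429: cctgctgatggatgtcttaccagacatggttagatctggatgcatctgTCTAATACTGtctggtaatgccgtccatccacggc
In the miR-200a and miR-141 hairpins the shared run is 17 bases long, and 2 hairpins of the annotation hold it.
Mir200a: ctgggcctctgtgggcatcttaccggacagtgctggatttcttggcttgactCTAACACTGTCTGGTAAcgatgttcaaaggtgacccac
Mir141: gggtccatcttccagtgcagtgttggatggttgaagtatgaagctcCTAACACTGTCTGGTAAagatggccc
Over the 9 bases in which the 2 runs overlap, 8 match and the substitution is T6C, counted from the first base of the run of the miR-200b subgroup, whose base is given first. How reads that match several of these close sequences were assigned is not given in the sources used here, so the division of reads between such members is uncertain.

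The members also divide by place. On GRCm38, Mir200b (chr4:156055681-156055750), Mir200a (chr4:156054896-156054985) and Mir429 (chr4:156053905-156053987) lie on the minus strand with 695 and 908 bases between neighbours, within introns of the protein-coding gene *Ttll10*. Mir429 also overlaps an exon of the noncoding gene *Gm13648*. Mir200c (chr6:124718322-124718390) and Mir141 (chr6:124717914-124717985), also on the minus strand, have 336 bases between them and lie in an intron of the noncoding gene *Gm15884*. Mir141 also overlaps an exon of *Gm29008*, a transcript of unconfirmed status. Mir203 (chr12:112130880-112130955, plus strand) overlaps no other annotated gene. Mir205 (chr1:193507463-193507530, minus strand) overlaps an exon of the long noncoding gene *4631405K08Rik*. Each subgroup by sequence therefore has members in both clusters, and each cluster holds both subgroups.

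All 7 members were scarce. The libraries held 2034574 to 13982842 microRNA reads, of which 57 to 2423 were reads of the members, or 0.000493% to 0.0243% of a library. The member with the most reads was miR-203-3p in 13 of 14 libraries, and miR-141-3p in the IS library of spalax_2240. Summed over all libraries, miR-203-3p had 7653 reads, miR-141-3p 765, miR-205-5p 559, miR-200b-3p 187, miR-200c-3p 169, miR-429-3p 146 and miR-200a-3p 85. By mean RPM (reads scaled to a common total per library), miR-203-3p ranked 210 among the 1326 names and miR-200a-3p 595. Of the 98 values (7 members in 14 libraries), 22 rested on 3 reads or fewer and 2 on 0 reads. Both zeros were miR-200a-3p, in the IS library of spalax_976 and in the unnumbered mouse UIS library, and a count of 0 there allows up to 0.849 and 0.262 RPM. These limits and the intervals below cover counting error only, since the reads carry no molecular identifiers.

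Of the 7 opposite arms of the hairpins, 6 are listed in the tables and miR-429-5p is not, and each of the 6 had fewer reads in all than the member from the same hairpin. The opposite arm took 10.5% of the reads of both arms for miR-200a and 0.179% to 1.17% for the other 5. miR-203-5p had 34 reads in all, with the most, 11 and 10, in the mouse UIS libraries of mouse_1023 and the unnumbered one, where miR-203-3p was also highest. miR-200a-5p had 10 reads, miR-141-5p 7, miR-200c-5p 2, and miR-200b-5p and miR-205-3p 1 each.

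**Figure D1:**
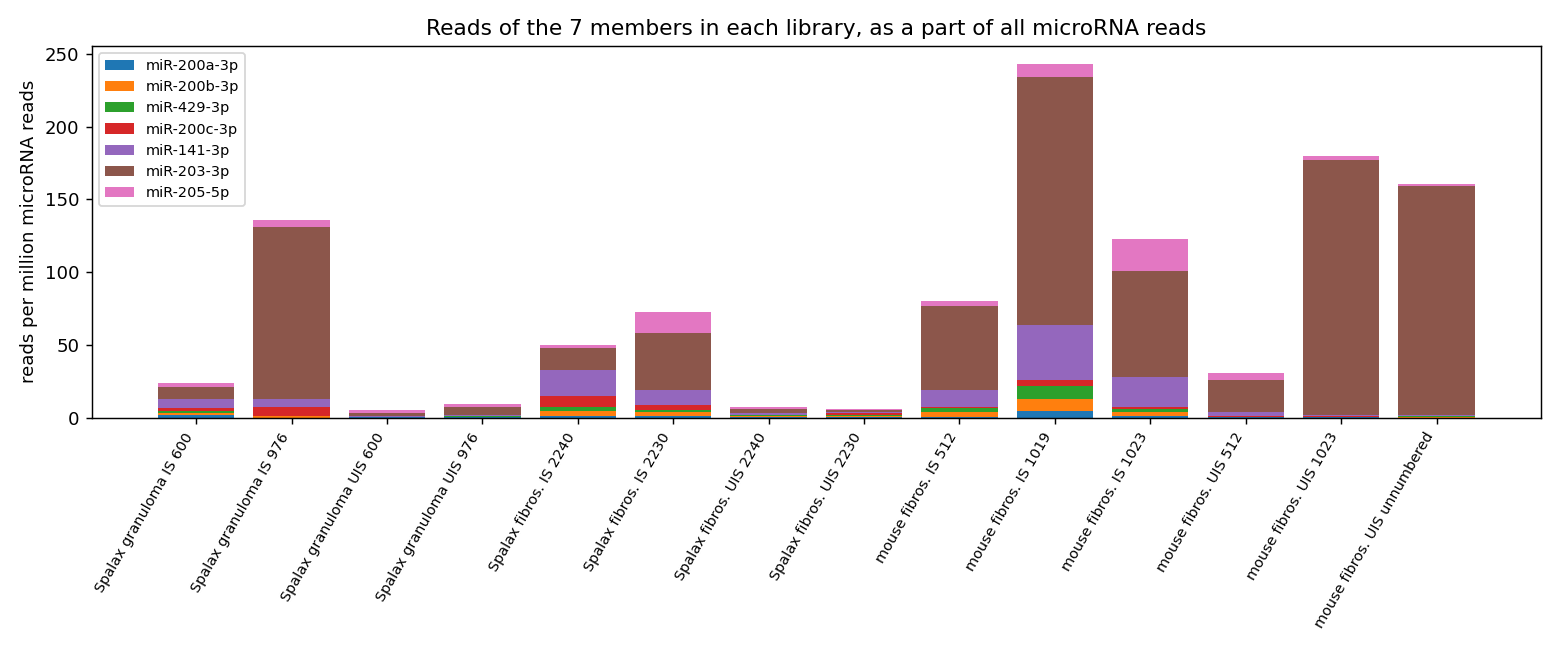
RPM (y axis, linear from 0) of the 7 members in each of the 14 libraries (x axis), stacked by member. The bars reach 4.93 to 9.46 in the *Spalax* UIS libraries and 24.1 to 136 in the *Spalax* IS libraries, and miR-203-3p fills 97.2% and 98.1% of the bar in 2 mouse UIS libraries.

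Normalized counts are the deposited values, in which the reads of a library are divided by its size factor, and this scaling bears on every result below. Skeletal muscle microRNAs, such as miR-1a and miR-133, made up 27.7% to 37.3% of reads in the UIS libraries and 0.00959% to 3.94% in the IS libraries, although all libraries are labelled as muscle tissue. In RPM, a scale that adds to the same total in each library, the median change at IS over all microRNAs tested was 2.02 (log2) for granuloma, 1.44 for *Spalax* fibrosarcoma and 2.76 for the mice, against 0.13, -0.23 and 0.21 for normalized counts. Bulk libraries cannot tell fewer cells of a type from less RNA per cell. Normalized counts were tested with limma on log2(value + 1), with adjusted p values (Benjamini-Hochberg) over all microRNAs that passed a filter of 10 normalized counts in at least 2 *Spalax* or 3 mouse libraries. Of the members, 5 passed in *Spalax* (miR-200b-3p, miR-200c-3p, miR-141-3p, miR-203-3p and miR-205-5p) and 4 in the mice (the same without miR-200c-3p). miR-200a-3p and miR-429-3p passed in neither and are described by their reads.

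miR-141-3p, of the chromosome 6 pair, was higher at IS than at UIS in both kinds of *Spalax* growth, and it was the only member called there. In the granulomas its normalized counts were 26.2 and 24.1 at IS (animals spalax_600 and spalax_976) and 8.50 and 6.35 at UIS. In the fibrosarcomas they were 80.3 and 43.6 at IS (spalax_2240 and spalax_2230) and 12.9 and 12.0 at UIS. Both IS libraries lay above both UIS libraries in each condition, and IS was higher in 4 of 4 animals. Such orders of libraries and animals, here and for the members below, were not counted over all microRNAs tested. How common they are was therefore not known, and they are given as descriptions only. The change was 3.12-fold in granuloma (log2 1.64, SE 0.54, adjusted p = 0.039) and 4.47-fold in fibrosarcoma (log2 2.16, SE 0.54, adjusted p = 0.018). In granuloma, 48.3% of 447 microRNAs tested were called in either direction, against 1 of 5 members, and in fibrosarcoma 37.4%, again against 1 of 5 members.

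The granuloma call of miR-141-3p was close to the threshold. Its adjusted p was 0.088 with a replicate block for the animal, 0.058 in edgeR, 0.075 without the filter and 0.094 to 0.16 when any 1 of the 4 granuloma libraries was left out, and 0.072 without either fibrosarcoma UIS library, which share the estimate of the spread, while the change stayed between 1.46 and 1.83 (log2) in these settings. It was 0.047 in DESeq2. In fibrosarcoma the call was kept with the replicate block (adjusted p = 0.047), in edgeR and in DESeq2. It was lost without the IS library of spalax_2240 (adjusted p = 0.055), the UIS library of spalax_2240 (0.090) or the UIS library of spalax_2230 (0.094).

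miR-200c-3p, whose hairpin neighbours that of miR-141, had normalized counts of 11.2 and 26.6 at IS and 4.25 and 3.81 at UIS in the granuloma animals, from 9 and 21 against 3 and 3 reads. In the fibrosarcoma animals they were 32.5 and 16.9 at IS and 7.54 and 15.6 at UIS. IS was higher in 4 of 4 animals, and the groups did not overlap in either condition, although in animal spalax_2230 the sides differed by 0.10 (log2). The change did not pass the test in granuloma (log2 1.87, SE 0.69, adjusted p = 0.058) or in fibrosarcoma (log2 1.04, SE 0.69, adjusted p = 0.28). miR-200c-3p reached 10 normalized counts in every *Spalax* IS library, but at UIS only in that of spalax_2230. It thus passed the filter through IS, where it was high. Neither the order of its sides nor its change can be read apart from that. Since the UIS libraries of the granuloma animals had 3 reads each, the ratio of the scaled reads was also taken, and it was 4.69 with an exact 95% counting interval of 1.92 to 13.8. Without the IS library of spalax_976 it was 2.79 (0.888 to 9.54).

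**Figure D2:**
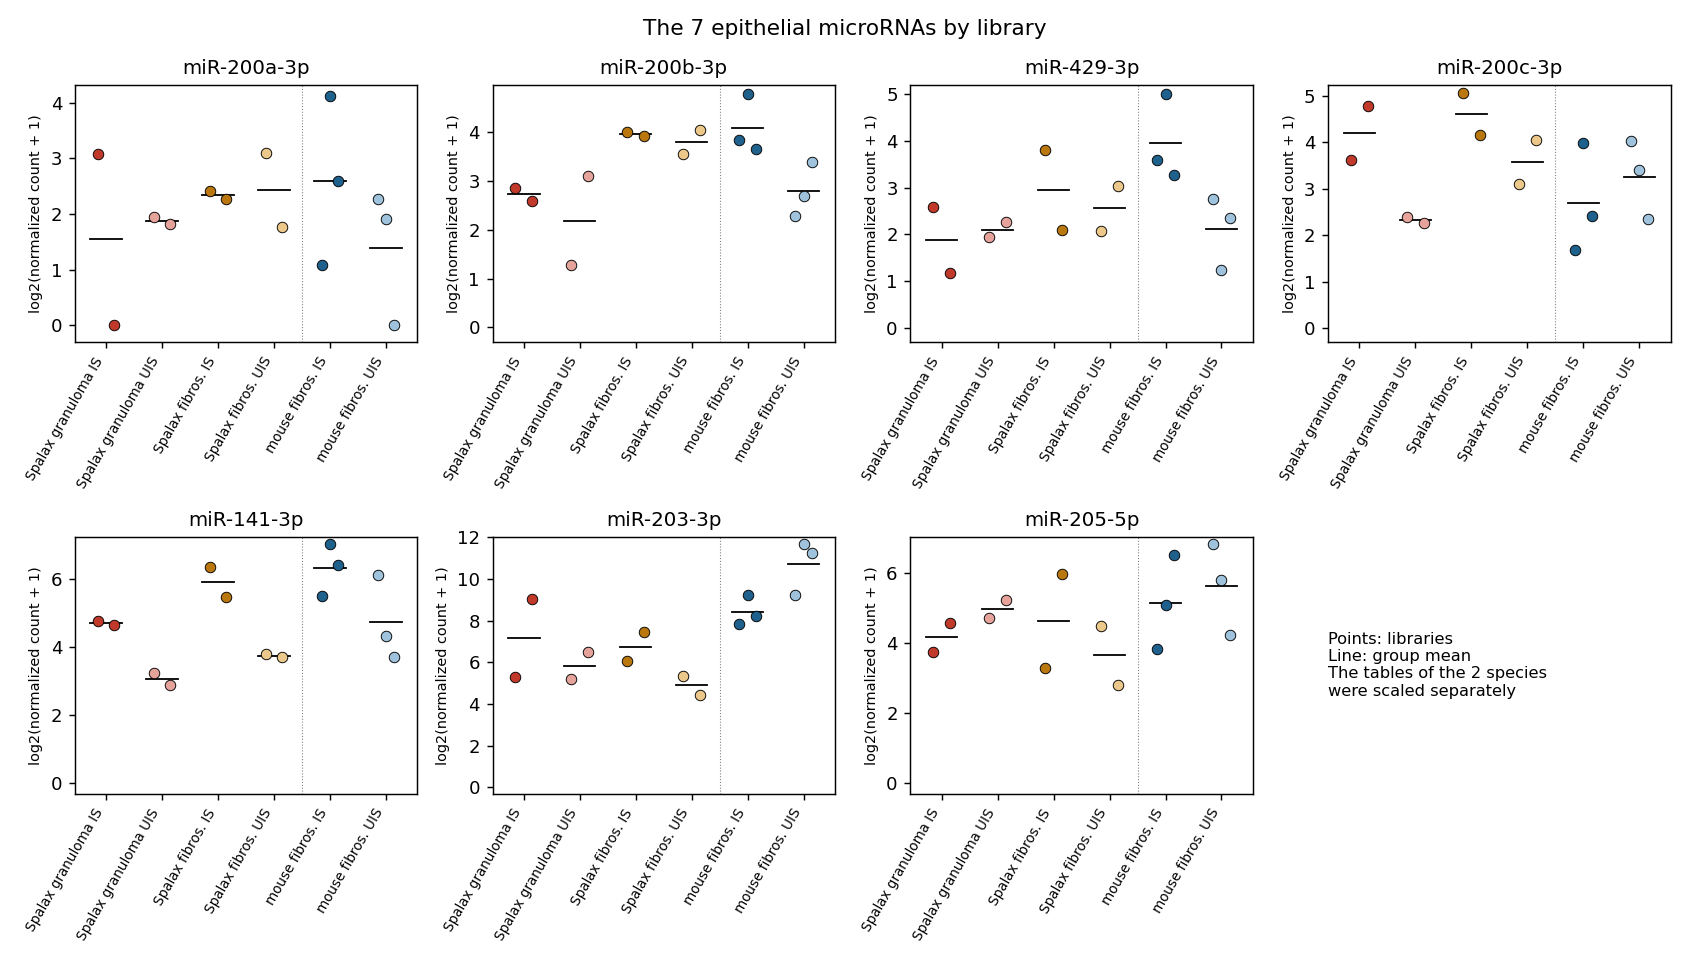
Normalized counts of each member, as log2(value + 1) (y axis), in every library (points) of the 6 groups (x axis), with the group mean as a line; the *Spalax* and mouse tables, to the left and right of the dotted line, were scaled separately. miR-141-3p at IS lies above UIS in both *Spalax* conditions, and miR-203-3p at IS lies below UIS in the mice.

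In normalized counts, none of the 3 chromosome 4 members separated the sides in *Spalax*. In RPM, where most microRNAs rose at IS, IS was higher in 4 of 4 animals for miR-200b-3p and miR-429-3p. For miR-200a-3p it was higher in 3 of 4. In RPM, miR-200b-3p was 1.13 to 1.40 at IS and 0.0865 to 0.485 at UIS in granuloma. In fibrosarcoma it was 3.25 to 3.44 and 0.766 to 1.10. miR-200b-3p had 6.24 and 5.07 normalized counts at IS and 1.42 and 7.62 at UIS in the granuloma animals, and the sides overlapped. In the fibrosarcoma animals it had 15.2 and 14.2 at IS and 10.8 and 15.6 at UIS, again with overlap. Its change was 0.54 (log2, SE 0.74, adjusted p = 0.57) in granuloma and 0.16 (SE 0.74, adjusted p = 0.89) in fibrosarcoma. miR-429-3p had 1 to 6 reads and miR-200a-3p 0 to 7 reads in the *Spalax* libraries. For both, the sides overlapped in each condition in normalized counts. The ratio of IS to UIS in granuloma was 0.938 (95% counting interval 0.216 to 4.08) for miR-429-3p and 1.41 (0.334 to 6.78) for miR-200a-3p, and changes of several fold in either direction lie within these intervals. Without the IS library of spalax_976 these ratios were 1.49 and 2.79, and without that of spalax_600 they were 0.378 and 0, since all 6 IS reads of miR-200a-3p came from spalax_600. Whether the change of the chromosome 6 pair differed from that of the chromosome 4 members was not tested.

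miR-203-3p was higher at IS in 4 of 4 *Spalax*, by very different amounts, and was not called. Its normalized counts were 38.7 at IS and 35.4 at UIS in animal spalax_600, but 528 and 87.7 in animal spalax_976. In the fibrosarcoma animals they were 65.1 against 39.8 in spalax_2240 and 172 against 20.5 in spalax_2230. IS lay above UIS without overlap in fibrosarcoma, and the sides overlapped in granuloma. The changes were 1.35 (log2, SE 1.19, adjusted p = 0.37) and 1.85 (SE 1.19, adjusted p = 0.26). The granuloma value turned on 1 animal: without the IS library of spalax_976 it was -0.52, and without that of spalax_600 it was 3.22 (adjusted p = 0.029).

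miR-205-5p, the only member named for the 5′ arm, had no common direction in normalized counts, where IS was higher in 1 of 4 *Spalax*. In the granuloma animals its normalized counts were lower at IS (12.5 and 22.8) than at UIS (25.5 and 36.8), with no overlap, and the change was -0.82 (log2, SE 0.99, adjusted p = 0.52). In the fibrosarcoma animals it was 8.68 at IS and 21.5 at UIS in spalax_2240, but 62.1 at IS and 6.02 at UIS in spalax_2230, giving 0.97 (log2, SE 0.99, adjusted p = 0.47). In RPM, IS was higher in each of the 4 animals, at 2.80 against 1.56 in spalax_600, 5.09 against 2.34 in spalax_976, 1.97 against 1.53 in spalax_2240 and 14.3 against 0.425 in spalax_2230. Animal spalax_2230, with the only high IS value, is also the only male among the 4 *Spalax* and the one operated last; with 1 such animal these cannot be told apart.

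**Figure D3:**
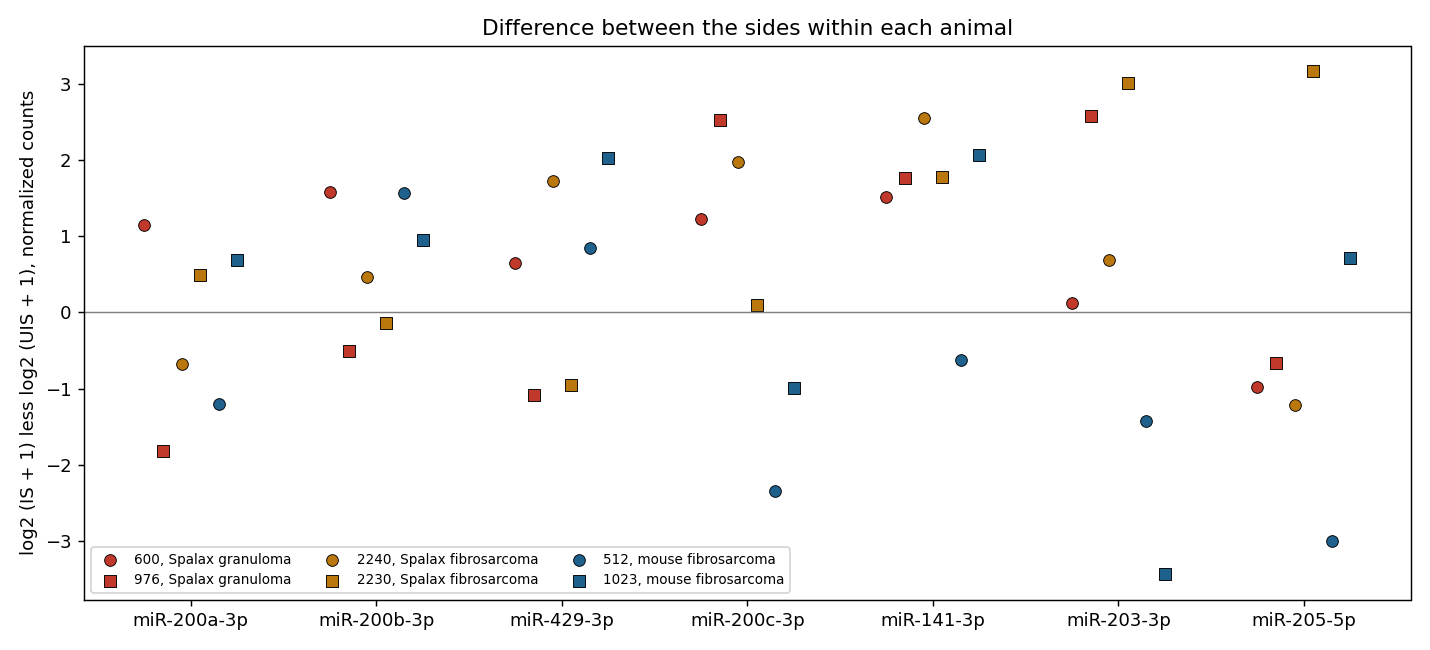
Difference between the sides of each animal (y axis, log2 of normalized counts + 1, IS less UIS) for each member (x axis); points are the 4 *Spalax* and the 2 mice whose sides could be paired. miR-203-3p lies between 0.12 and 3.01 in the *Spalax* and at -1.43 and -3.44 in the mice, and miR-205-5p spans -3.0 to 3.17.

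In the mice, miR-203-3p was the only member called, and it was lower in the fibrosarcomas. Its normalized counts were 223, 592 and 297 at IS (animals mouse_512, mouse_1019 and mouse_1023) and 603, 3233 and 2442 at UIS (mouse_512, mouse_1023 and the unnumbered library). All 3 IS libraries lay below all 3 UIS libraries, although the highest IS and the lowest UIS value were close. The level at IS was 0.202 of that at UIS (log2 -2.30, SE 0.71, adjusted p = 0.029). Of 547 microRNAs tested, 57.8% were called in either direction, against 1 of 4 members. The call was kept with the replicate block (adjusted p = 0.033, on the 2 pairs alone), in edgeR and in DESeq2. It was lost without the IS library of mouse_512 (adjusted p = 0.074), the IS library of mouse_1023 (0.075), the UIS library of mouse_1023 (0.10) or the unnumbered UIS library (0.092).

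That fall was seen on the scale of normalized counts and not as a share of the library. In RPM, miR-203-3p was 58.2, 170 and 72.8 at IS and 22.5, 175 and 157 at UIS, and the change was 0.07 (log2, adjusted p = 0.94). On that scale miR-203-3p stood below the median change of all microRNAs, 2.76, as it did in normalized counts.

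None of the other mouse members was called. miR-141-3p had 44.4, 131 and 83.8 normalized counts at IS and 69.2, 19.2 and 12.2 at UIS. In RPM it was 11.6 to 37.6 at IS and 0.786 to 2.57 at UIS, but in normalized counts the UIS library of mouse_512 lay within the IS range. The change in normalized counts, 1.59 (log2, SE 0.74), did not pass (adjusted p = 0.10). Without that library it was 2.29 (adjusted p = 0.030). miR-200b-3p had 13.3, 26.8 and 11.6 at IS and 3.84, 5.49 and 9.50 at UIS. It passed the filter only through its 3 IS libraries, so it was tested because it was high there, and neither the order of its sides nor its change, 1.31 (log2, SE 0.52, adjusted p = 0.065), can be read apart from that. miR-205-5p had 13.3, 33.0 and 91.1 at IS and 113, 54.9 and 17.6 at UIS, with overlap and a change of -0.47 (log2, SE 0.90, adjusted p = 0.66).

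The mouse members that missed the filter were counted by reads. miR-429-3p had 10, 86 and 12 reads at IS and 3, 1 and 3 at UIS, so that IS lay above UIS in each library, with a ratio of scaled reads of 6.08 (95% counting interval 2.85 to 15.5). miR-200a-3p had 1, 45 and 7 reads at IS and 2, 2 and 0 at UIS, a ratio of 5.22 (1.92 to 19.9). Its sides overlapped in normalized counts, but in RPM it was 0.289 to 4.70 at IS and 0 to 0.149 at UIS. Most of the IS reads of both came from mouse_1019. Without that library the ratio was 2.73 (1.13 to 7.57) for miR-429-3p and 1.74 (0.466 to 7.89) for miR-200a-3p, and without the unnumbered UIS library that of miR-200a-3p was 3.28 (1.21 to 12.5). These ratios without a library, here and in *Spalax*, were added after the values were seen. miR-200c-3p had 2, 41 and 6 reads at IS and 8, 7 and 3 at UIS, or 2.22, 14.9 and 4.34 against 15.4, 9.61 and 4.07 normalized counts, and the sides overlapped. In the pairable mice miR-200c-3p was lower at IS in 2 of 2 in normalized counts. In RPM, however, it was 0.579 at IS and 0.572 at UIS in mouse_512 and 1.06 and 0.520 in mouse_1023. Over all mouse libraries it was 0.579 to 4.28 RPM at IS and 0.262 to 0.572 at UIS.

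Scaling to the total reads raised the change of each tested member, as it did that of microRNAs in general. On that scale 4 of 5 members were called higher in granuloma (miR-200b-3p, miR-200c-3p, miR-141-3p and miR-203-3p). In *Spalax* fibrosarcoma 3 of 5 were (miR-200c-3p, miR-141-3p and miR-203-3p), and in the mice 3 of 5 (miR-200b-3p, miR-429-3p and miR-141-3p). The filter was applied anew to these values, which is how miR-429-3p came to be tested. Without their IS libraries, miR-200b-3p, miR-200c-3p and miR-141-3p would not have passed it in *Spalax*. The same holds for miR-200b-3p, miR-429-3p and miR-141-3p in the mice. Their calls on this scale cannot be read apart from that. Over all microRNAs tested on that scale, 262 of 451 were called higher and 46 lower in granuloma. The calls higher and lower were 198 and 38 of 451 in *Spalax* fibrosarcoma and 421 and 30 of 588 in the mice. In normalized counts they were 114 and 102 of 447, 68 and 99 of 447, and 176 and 140 of 547. miR-200a-3p, miR-200c-3p and miR-429-3p were not tested in all 3 comparisons on both scales. Among the other members, only the change of miR-141-3p lay above the median of all microRNAs on both scales in all 3 comparisons. Its changes in RPM were 3.31, 3.76 and 3.90 (log2). Since it passed the filter on that scale through its IS libraries, these changes cannot be used to set it apart from the other members.

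**Figure D4:**
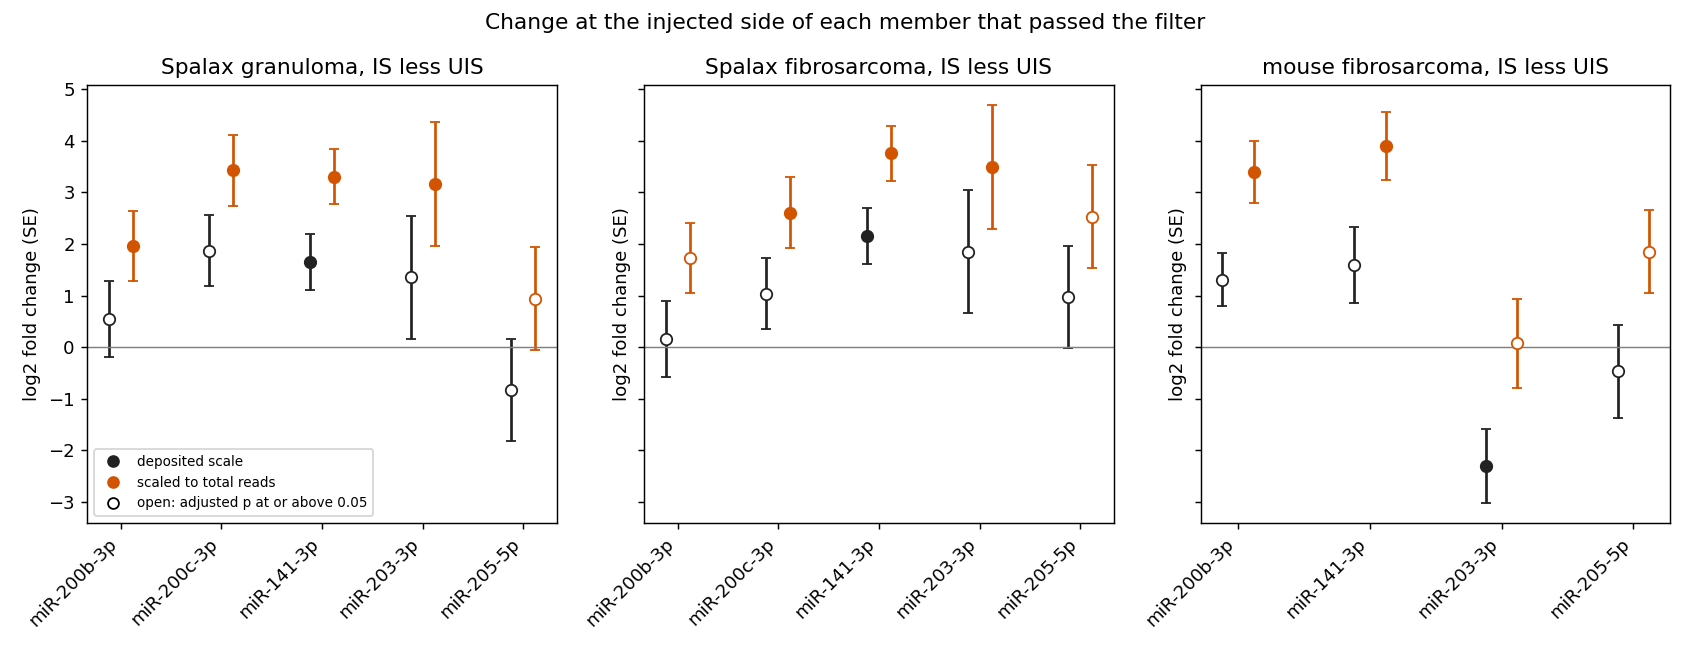
Change at IS (log2, y axis; bars are standard errors) of each member that passed the filter (x axis) in the 3 comparisons, in normalized counts (black) and scaled to total reads (orange); filled points have an adjusted p under 0.05. Orange points lie above black ones throughout, and mouse miR-203-3p moves from -2.30 to 0.07.

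The changes in the 2 kinds of *Spalax* growth were compared directly. The difference, granuloma change less fibrosarcoma change, was called for none of the 5 members by limma, edgeR or DESeq2, and none reached an unadjusted p of 0.05 in limma. Over all microRNAs, 3.8% were called. The largest difference among the members was that of miR-205-5p, -1.80 (log2, SE 1.40, adjusted p = 0.56), and that of miR-141-3p was -0.52 (SE 0.77, adjusted p = 0.76). The standard errors, 0.77 to 1.68 for the 5 members, leave room for differences of several fold.

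At the injected sides alone, granuloma less fibrosarcoma, no member was called either, by limma, edgeR or DESeq2, while 18.8% of all microRNAs were called in limma. An unadjusted p under 0.05 in limma was reached by 123 of 447 microRNAs, none of them a member. miR-141-3p was 61.9 ± 26.0 (SD, n = 2) in fibrosarcoma and 25.1 ± 1.51 (n = 2) in granuloma, without overlap, a difference of -1.20 (log2, SE 0.54, adjusted p = 0.20). miR-200b-3p was 14.7 ± 0.730 and 5.65 ± 0.830 (SD, n = 2 each), also without overlap, a difference of -1.24 (SE 0.74, adjusted p = 0.32). It reached 10 normalized counts in every library of the fibrosarcoma animals and in none of the granuloma animals. miR-200b-3p thus passed the filter through the animals where it was high. Neither its order nor its difference between the growths can be read apart from that.

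At the uninjected sides the 2 kinds of animal gave no call among the members, and 0% of all 447 microRNAs were called, with 0 also in edgeR and DESeq2 and 5 at an unadjusted p under 0.05 in limma, none of them a member. The means of the 5 miR-200 family members were lower in the granuloma-bearing animals. miR-200a-3p and miR-429-3p missed the filter and were not tested, and their values overlapped between the 2 kinds of animal. For miR-200b-3p, miR-200c-3p and miR-141-3p no difference passed the test. miR-200b-3p was 4.52 ± 4.39 against 13.2 ± 3.45 (SD, n = 2 each, log2 -1.62, SE 0.74, adjusted p = 1). It passed the filter only through the fibrosarcoma animals, so this difference cannot be read apart from that. miR-200c-3p was 4.03 ± 0.311 against 11.6 ± 5.73 (log2 -1.25, SE 0.69, adjusted p = 1). For miR-141-3p the order of the 4 *Spalax* groups was therefore fibrosarcoma IS, granuloma IS, fibrosarcoma UIS (12.5 ± 0.626) and granuloma UIS (7.43 ± 1.52), and neither the first pair of neighbours nor the last passed the test; the middle pair was not tested.

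The opposite directions of miR-203-3p in the 2 species were tested in a fit of the 13 libraries that the *Spalax* table holds on 1 scale, which leaves out the unnumbered mouse library; this fit was chosen after the values were seen. The *Spalax* fibrosarcoma change less the mouse change was 3.76 (log2, SE 1.60, unadjusted p = 0.041), and it did not pass after adjustment (adjusted p = 0.11). The *Spalax* granuloma change less the mouse change was 3.26 (SE 1.60, adjusted p = 0.21). Of 607 microRNAs tested, 26% and 14.7% were called in these 2 differences, against 0 of 6 members in each, with 1 member in each at an unadjusted p under 0.05 (miR-200c-3p in the granuloma difference, 2.76, SE 1.03, adjusted p = 0.10). The miR-203-3p differences passed when certain libraries were left out: the fibrosarcoma one without the IS library of spalax_600 or of spalax_976 (adjusted p = 0.046 in both), and the granuloma one without that of spalax_600 (5.13, adjusted p = 0.043). The granuloma libraries do not enter the fibrosarcoma difference. Leaving 1 of them out kept its estimate and changed only the spread that the libraries share in the fit. The granuloma difference of miR-200c-3p passed without the IS library of mouse_1019 (3.38, adjusted p = 0.030). On the same scale, miR-203-3p at UIS was 490 and 2439 in mouse_512 and mouse_1023 and 20.5 to 87.7 in the 4 *Spalax*. These levels are given side by side and were not tested.

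The microRNAs whose profile over the libraries was most like the mean profile of the 7 members were ranked by the root mean square difference. In the 8 *Spalax* libraries they were miR-16-5p, miR-103-3p and miR-532-5p, at 0.239, 0.271 and 0.302 (log2, after each microRNA's own mean was subtracted), where the median over 442 microRNAs was 1.31. The members themselves lay 0.668 to 1.24 from their own mean profile, farther than these 3. That profile takes in miR-200a-3p and miR-429-3p, which rest on few reads. A single member carries more counting error than the mean of the members or an abundant microRNA such as miR-16-5p. The distances of members and of such microRNAs therefore cannot be compared directly. In the 6 mouse libraries the nearest were miR-20b-5p, miR-339-5p and miR-15a-5p, at 0.296, 0.300 and 0.326, and the members lay at 0.566 to 1.64, with miR-203-3p the farthest in both species. Among pairs of members, miR-200c-3p and miR-141-3p, the chromosome 6 neighbours, were nearest in *Spalax* (0.587) but lay 1.16 apart in the mice. In the mice miR-200a-3p and miR-141-3p, which share the 17 bases, were nearest (0.658), closely followed by miR-200b-3p and miR-429-3p of chromosome 4 (0.671). miR-200a-3p and miR-141-3p lay 1.35 apart in *Spalax*, so no pair was nearest in both species. These are descriptions over few libraries, in which the sides differ.

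Other microRNAs known from epithelia were looked at beside the members: 11 names, all in the tables and all tested. At IS, 2 of 11 rose in granuloma, where 48.3% of all microRNAs were called, miR-31-5p (log2 3.38, SE 1.01, adjusted p = 0.028) and miR-96-5p (3.80, SE 1.32, adjusted p = 0.047), and none fell. In *Spalax* fibrosarcoma 2 rose, miR-449a-5p (5.41, SE 1.20, adjusted p = 0.011) and miR-34c-5p (3.35, SE 1.02, adjusted p = 0.036), both known from ciliated cells, and miR-375-3p, known from endocrine cells and gut, fell (-2.77, SE 0.82, adjusted p = 0.032), which makes 3 of 11 beside 37.4% of all microRNAs. In the mice 7 of 11 were called, beside 57.8% of all microRNAs: 4 rose (miR-31-5p, miR-34b-5p, miR-34c-5p and miR-449a-5p, by 2.85 to 5.25) and 3 fell (miR-375-3p, miR-192-5p and miR-194-5p, by -4.41 to -1.82). The median over the 11 was 2.42, 1.38 and 1.33 (log2) in the 3 comparisons, against 0.13, -0.23 and 0.21 over all microRNAs. Their summed share of reads was 0.151% to 0.952% at granuloma IS and 0.0198% to 0.0359% at its UIS, 0.157% to 0.250% and 0.0304% to 0.0376% in *Spalax* fibrosarcoma, and 0.717% to 1.71% and 0.0494% to 0.158% in the mice. How far skin or another epithelium in the samples bears on the members was not tested.

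Among the lists for other cell types, the summed shares of total reads of the muscle and the mesenchymal names differed between the sides without overlap in both species, those of the leukocyte names did so in *Spalax* and overlapped in the mice, and those of the red cell names overlapped in both. Of the muscle names, 7 of 7 tested fell at IS in both *Spalax* conditions and 3 of 7 in the mice. The summed share of 5 microRNAs of fibroblasts and other mesenchymal cells was 4.19% to 13.2% at IS and 2.15% to 3.29% at UIS in *Spalax*, and 7.21% to 11.6% and 2.66% to 4.60% in the mice. In normalized counts, 3 of these 5 were called higher and 2 lower at IS in granuloma and in the mice, and 0 higher and 2 lower in *Spalax* fibrosarcoma. That of the 2 leukocyte microRNAs in the tables, of 4 listed, was 0.198% to 1.30% at IS and 0.0377% to 0.0621% at UIS in *Spalax*, and 0.0404% to 0.292% and 0.0131% to 0.0557% in the mice. In normalized counts 1 was called higher and 1 lower in granuloma, and 1 higher and 0 lower in the other comparisons of the sides. The 3 red cell microRNAs in the tables, of 4 listed, took 0.156% to 0.849% at IS and 0.190% to 0.544% at UIS in *Spalax*, 0.0926% to 0.227% and 0.0539% to 0.494% in the mice, and none of them was called in any comparison of the sides. Neither of the 2 endothelial names is in the tables. The part of these shares in the members' changes was not tested.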

How the data were processed

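The library kit was TruSeq Small RNA. The authors trimmed adaptors and mapped the reads with mirDeep, whose version, settings and reference are not given in the sources used here. The study states that what it knew of microRNAs rested on the annotation of mice, and the *Spalax* values stand under the same names. The authors deposited a signal, which is the read number over the size factor of its library: 100% of the values used were whole multiples of a step per library (tolerance 0.1 reads), which gave back the reads. The *Spalax* table was scaled with libraries of both species and the mouse table with its own 6, so the species were fitted separately. 0 further value columns were left out.

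limma 3.58.1 (R 4.3.3), with a spread that follows the mean, was run on log2(value + 1) for microRNAs that reached a value of 10 in 2 or more *Spalax*, or in 3 or more mouse, libraries, with Benjamini-Hochberg adjustment and a threshold of 0.05. The 8 *Spalax* libraries shared a fit. Alternatives were scaling to total reads, size factors without muscle microRNAs or of the *Spalax* libraries alone, no filter, a pseudocount of 0.1, edgeR 4.0.16 and DESeq2 1.42.0 on the recovered reads, the animal as a replicate block, and leaving out each library. Counting intervals are exact (95%) and the floor is 3 reads. Other work was done in Python 3.11.15.

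Named microRNAs are the 7 members, their opposite arms, the 3 nearest by profile in each species and lists of cell type microRNAs. The members and lists were chosen with earlier results of these data known. Sides were paired by the animal number in the labels; the deviations of paired libraries from their group means correlated at 0.0933 in granuloma, 0.00405 in *Spalax* fibrosarcoma, and 0.122 and -0.107 in mouse_512 and mouse_1023. Mature sequences were not used here, so names that share bases 2 to 8 with a member were not looked up.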

Additional observations from a re-analysis of the deposited data

How the results depend on the processing

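Of the 6 comparisons within a species, those between the 2 kinds of growth, the injected sides and the uninjected sides gave 0 members in each alternative. In granuloma, 1 member was called; the count was 4 scaled to total reads, 0 without the filter, 0 in edgeR, 0 with the replicate block, and 0 to 1 leaving out a library. In *Spalax* fibrosarcoma, 1 was called, with 3 scaled to total reads, 1 with the replicate block and 0 to 1 leaving out a library. In the mice, 1 was called, with 3 scaled to total reads and 0 to 2 leaving out a library. The differences between species gave 0 members, and 0 to 1 in each leaving out a library. Apart from total scaling, edgeR on miR-200b-3p and edgeR and DESeq2 on miR-203-3p, the reversed directions came from leaving out a library. Scaled to total reads, miR-205-5p turned to 0.94 in granuloma and 1.85 in the mice, miR-203-3p to 0.074 in the mice, and in the granuloma difference between species miR-141-3p to -0.25 and miR-205-5p to -0.39. In edgeR, miR-200b-3p in fibrosarcoma was -0.028 and the miR-203-3p difference between growths 0.51, and in DESeq2 the latter was 0.22. Leaving out a library, the ranges that crossed 0 were -0.52 to 3.22 for miR-203-3p and -0.38 to 1.46 for miR-200b-3p in granuloma, -0.088 to 0.41 for miR-200b-3p and -0.38 to 2.33 for miR-205-5p in fibrosarcoma, and -1.17 to 0.18 for miR-205-5p in the mice. For the difference between growths they were -2.37 to 1.37 for miR-203-3p and -0.54 to 1.29 for miR-200b-3p, and between injected sides -1.0 to 0.17 for miR-200c-3p, -1.43 to 2.31 for miR-203-3p and -1.82 to 0.89 for miR-205-5p. For the granuloma difference between species they were -0.50 to 1.39 for miR-141-3p and -0.40 to 0.88 for miR-205-5p. The cause was not tested. A group left with 1 library is assumed to vary like the others. Over all microRNAs, the calls leaving out a library were 129 to 234 in granuloma (216 in the reported fit), 77 to 176 in *Spalax* fibrosarcoma (167), 213 to 320 in the mice (316), 0 to 39 in the difference between growths (17), 44 to 87 between injected sides (84), 77 to 192 in the fibrosarcoma difference between species (158) and 53 to 125 in the granuloma one (89). The difference between growths also gave 32 calls scaled to total reads, 0 without the filter, 0 with a pseudocount of 0.1, 69 in DESeq2 and 5 with the replicate block, and the granuloma difference between species 157 scaled to total reads and 59 with a pseudocount of 0.1. With 22 of 98 values on 3 reads or fewer, depth limits miR-200a-3p and miR-429-3p most.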
